A study of Mus musculus with 6 samples.

Results

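Integrins are the cell surface receptors that hold a cell to its surrounding matrix, and laminins are the matrix proteins that many of them bind. The genes described here come from the rows of the deposited table whose symbol is Itga or Itgb followed by digits only, or Lama, Lamb or Lamc followed by 1 digit. They are 29 of 54532 genes in the table, 19 of them integrins (11 alpha and 8 beta) and 10 laminins. An integrin is a pair of 1 alpha and 1 beta subunit, and the pair sets which ligand is bound. A laminin is a cross-shaped trimer of 1 alpha, 1 beta and 1 gamma chain that polymerizes into basement membranes. In the germinal zones of the brain, neural stem cells contact laminin-rich matrix, and integrins of the beta 1 class help to keep them there.

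Gene expression was read by bulk RNA sequencing from neurospheres, which are balls of dividing neural progenitors kept in suspension, grown here from the hippocampus of P0 (newborn) C57BL/6 mice. Each mouse gave cells for 2 wells, fed with FGF-2 and EGF at 20 ng/ml each, and spheres were collected on day 7. The CTRL group (3 libraries) has the genotype hGFAPCre+, Fgf13+/y, and the FGF13cko group (3 libraries) hGFAPCre+, Fgf13 flox/y, so both carry by their labels the same Cre transgene and a single X-linked copy of Fgf13. Cre is driven by the human GFAP promoter, which is active in radial glia and astrocytes. The controls are described as littermates, and no label states whether the libraries stem from different mice, so p-values measure the spread between these libraries.

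Each library held 22191718 to 24531400 reads assigned to genes. The targeted gene Fgf13 was at 480.1, 651 and 276 normalized counts in CTRL 1, 2 and 3 and at 201, 239 and 332 in FGF13cko 1, 2 and 3. These ranges overlapped, and the log2 change of -0.81 (SE 0.33) missed the threshold (limma adjusted p = 0.134, and p = 0.2 in a 2-sided exact permutation test, whose smallest possible p is 0.1). This check depended on the libraries numbered 3, since Fgf13 passed without CTRL 3 (log2 change -1.15, limma adjusted p = 0.0108) and without both of them (-1.35, limma adjusted p = 0.000352). With any single library left out, the log2 change lay between -1.15 and -0.53. Prm1, a sperm chromatin gene whose 3′ end is a common part of transgene cassettes, was at 3.02 to 10.1 normalized counts in CTRL and at 1284 to 2453 in FGF13cko. Both groups are labelled hGFAPCre+, and whether these reads come from a transgene was not tested. All of the 12 neural progenitor markers examined were detected in each library. By limma 4 of them fell (Sox2, Pax6, Hes5 and Prom1) and none rose, where 7.08% of all tested genes fell and 7.55% rose. The median log2 change of the 12 was -0.30. The summed levels of the 12 were 145087 to 159756 normalized counts in CTRL and 195018 to 207740 in FGF13cko. Vim, Nes and Fabp7, which did not pass the test, carried much of that sum. The libraries numbered 3 stood apart in both groups, with 4.14% and 4.05% of reads from mitochondrial genes against 1.46% to 2.36% in the others.

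Of the 29 genes, 27 had a mean of at least 10 normalized counts over the 6 libraries and were tested. In FGF13cko 6 rose (Itga3, Itga8, Itgb2, Lama3, Lama4 and Lamb1) and 3 fell (Itga7, Itgb4 and Lamb3), by limma with an adjusted p under 0.05. Over all 16852 genes tested, 7.55% passed as higher and 7.08% as lower. Without overlap between the groups, 13 tested members were higher and 3 lower in FGF13cko, where 20.6% and 18.7% of all tested genes were without overlap in these directions. The median log2 change of the 27 tested members was 0.48, beside 0.02 for all tested genes. Of the abundant members, Itgb1, Itga5, Itga6, Itgb5, Itgb8, Lama5, Lamb2 and Lamc1 did not pass. Itga7, with a CTRL mean of 1517 normalized counts, fell. Of the 9 that passed, 7 had a CTRL mean of at most 165 normalized counts. In bulk RNA, fewer cells of a type and less RNA per cell cannot be told apart.

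**Figure D1:**
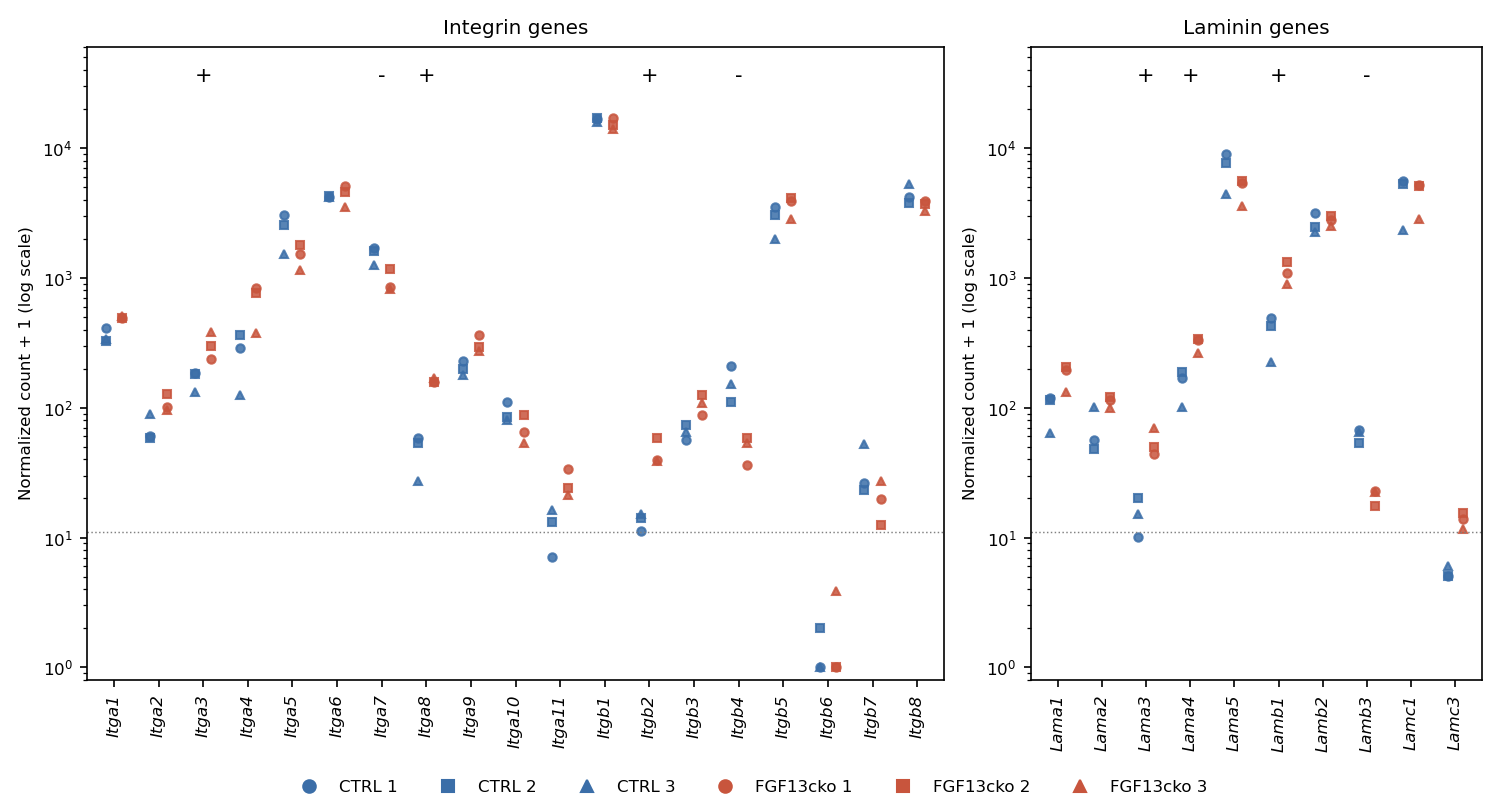
Normalized count plus 1 on a log scale for each of the 29 genes, 1 point per library, with CTRL in blue and FGF13cko in red. Plus and minus signs mark the 6 genes that rose and the 3 that fell, and the dotted line is a mean of 10. The most abundant gene, Itgb1, sits near the same level in both groups.

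Levels of different genes are compared here only per length, as normalized counts per kilobase (kb) of merged exons. On this scale the most abundant laminin genes of CTRL were Lama5 at 616 ± 205 (SD, n = 3), Lamc1 at 531 ± 216 and Lamb2 at 434 ± 79.4, a set of 1 alpha, 1 gamma and 1 beta chain. The differences between these 3 means were within the SD of the higher one. Within each CTRL library Lama5 was the highest of the 3, and the order of Lamc1 and Lamb2 was not the same in all of them. Lama5 encodes the long alpha chain of most adult basement membranes, Lamc1 the gamma chain that most laminins share, and Lamb2 a beta chain of synaptic, vascular and kidney laminins. The next, Lamb1, was at 38.4 ± 14.0 per kb, and the other 6 laminin genes described were at 0.720 to 12.6.

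Lama5 counted 8987, 7622 and 4428 normalized counts in CTRL and 5382, 5605 and 3555 in FGF13cko. CTRL 3 lay among the FGF13cko libraries, and the log2 change of -0.50 (95% interval -1.17 to 0.18, limma adjusted p = 0.278) did not pass. With the replicate number as a block, it passed at the same size (limma adjusted p = 0.0219), and without CTRL 3 the log2 change was -0.80 (limma adjusted p = 0.0229). Lamc1 stood at 5531, 5301 and 2333 normalized counts in CTRL and at 5221, 5079 and 2842 in FGF13cko. Both libraries numbered 3 were low, the other 4 lay close together, and the log2 change was 0.05 (95% interval -0.81 to 0.90, limma adjusted p = 0.946). Lamb2 was at 3178, 2484 and 2249 in CTRL and at 2807, 3002 and 2512 in FGF13cko, which overlapped widely (log2 change 0.08, 95% interval -0.30 to 0.47, limma adjusted p = 0.764).

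Of the minor alpha chains, Lama4 and Lama3 rose. Lama4, an alpha chain typical of blood vessels and fat, was at 169, 187 and 100.1 normalized counts in CTRL and at 331, 335 and 262 in FGF13cko. All FGF13cko libraries were above all CTRL libraries, and the log2 change was 1.06 (SE 0.26, limma adjusted p = 0.0338). Lama3, an alpha chain of epithelia such as skin, was lower throughout, at 9.15, 19.1 and 14.2 in CTRL and 43.3, 49.2 and 68.6 in FGF13cko (log2 change 1.88, SE 0.36, limma adjusted p = 0.0155). The CTRL libraries held 42 reads of it and those of FGF13cko 166. Lama1, the alpha chain of the earliest embryonic laminin, was at 118, 113 and 62.7 in CTRL and at 193, 205 and 131 in FGF13cko, without overlap. Its log2 change of 0.87 (95% interval 0.17 to 1.57) missed the threshold (limma adjusted p = 0.0916), and it passed with the replicate block (limma adjusted p = 0.0127) and without both libraries numbered 3 (limma adjusted p = 0.00655). Lama2, the alpha chain of muscle and nerve, had a log2 change of 0.78 (limma adjusted p = 0.125), with CTRL 3 at 100.1 among the FGF13cko libraries at 98.6 to 121.

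The beta chains moved in opposite directions. Lamb1, the beta chain of embryonic and widely made laminins, rose from 491, 427 and 225 normalized counts in CTRL to 1087, 1312 and 904 in FGF13cko. The lowest FGF13cko library was well above the highest CTRL library, and the rise was 3.01-fold (log2 change 1.59, SE 0.30, limma adjusted p = 0.0140). Lamb3, a beta chain of epithelial laminin, fell from 66.1, 52.3 and 63.7 to 21.6, 16.4 and 21.3, again without overlap (log2 change -1.57, SE 0.27, limma adjusted p = 0.0112). The gene Lamb1 spans 31265234 to 31329644 of chromosome 12, and Lamb3 spans 193207699 to 193343878 of chromosome 1 (GRCm38, both on the plus strand). On the same build Lama4 lies at chr10:38965515-39110188. No exon of another annotated gene overlaps any of these 3.

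Promoter windows, from 250 bases before to 50 after a gene's start, are shown for the 4 of the 9 genes past the test that the RefSeq promoter table (GRCm38.p6) holds, so that a reader can set the 2 beta chain genes beside each other. They are chr12:31265043-31265342 (plus strand) for Lamb1 and chr2:12301895-12302194 (minus) for Itga8. For Lamb3 and Itga3 the window belongs to 1 of 2 listed starts, at chr1:193301744-193302043 (plus) and chr11:95076665-95076964 (minus). The Lamb3 window lies inside the annotated span of that gene, downstream of its 5′ end at 193207699. Sequences run 5′ to 3′ on the gene's strand. Capitals mark any match, on either strand, to the Sp1 box GGGCGG, the AP-1 site TGANTCA, the TATA box TATAAA, or the core of the hypoxia response element in its forms ACGTG and GCGTG.
Lamb1: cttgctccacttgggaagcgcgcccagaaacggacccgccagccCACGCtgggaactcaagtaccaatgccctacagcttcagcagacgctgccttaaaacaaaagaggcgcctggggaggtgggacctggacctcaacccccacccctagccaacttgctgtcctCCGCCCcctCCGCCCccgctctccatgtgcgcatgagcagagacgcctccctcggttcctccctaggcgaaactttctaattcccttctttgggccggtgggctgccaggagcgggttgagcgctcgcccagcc
Lamb3: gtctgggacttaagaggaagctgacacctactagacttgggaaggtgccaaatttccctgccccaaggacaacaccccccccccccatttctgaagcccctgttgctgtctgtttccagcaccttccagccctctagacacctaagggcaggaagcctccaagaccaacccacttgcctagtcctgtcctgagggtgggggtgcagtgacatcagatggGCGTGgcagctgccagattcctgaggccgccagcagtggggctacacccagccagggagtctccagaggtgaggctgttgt
Itga8: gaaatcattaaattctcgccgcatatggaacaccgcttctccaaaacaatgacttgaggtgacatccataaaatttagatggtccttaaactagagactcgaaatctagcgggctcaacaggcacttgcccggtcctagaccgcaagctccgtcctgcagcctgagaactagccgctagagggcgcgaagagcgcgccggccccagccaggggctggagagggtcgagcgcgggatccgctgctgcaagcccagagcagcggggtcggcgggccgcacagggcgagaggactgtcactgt
Itga3: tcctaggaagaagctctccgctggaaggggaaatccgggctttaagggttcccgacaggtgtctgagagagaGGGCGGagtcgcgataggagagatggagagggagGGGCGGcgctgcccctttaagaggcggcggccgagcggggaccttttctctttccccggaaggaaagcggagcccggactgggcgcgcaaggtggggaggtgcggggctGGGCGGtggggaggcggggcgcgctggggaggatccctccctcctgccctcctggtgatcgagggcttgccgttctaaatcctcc
The Lamb1 window held 18 CpG pairs and the Lamb3 window 2, beside a median of 7 over all 32851 windows in the table. Itga8 and Itga3 had 23 and 24. The Sp1 box was found at 2 places in Lamb1 and 3 in Itga3, and 35.7% of all windows hold it. The GCGTG core was found once in Lamb1 and once in Lamb3, and 32.4% of all windows hold it. The other motifs had no match in these 4 windows, and are held by 7.81% (TGANTCA), 13.6% (TATAAA) and 19.6% (ACGTG) of all windows. A match is only a run of letters and does not show that a factor binds there.

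Lamc3, a gamma chain of nerve and retina, was below the minimum and was not tested. Its values of 4.07, 4.03 and 5.06 normalized counts in CTRL and 12.8, 14.5 and 10.6 in FGF13cko did not overlap. The epithelial chains Lama3 and Lamb3 moved in opposite directions, each without overlap between the groups, and both were minor, at 1.32 and 9.18 normalized counts per kb in CTRL beside 616 for Lama5.

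The make-up of the laminin alpha and beta classes was followed as each gene's share of the summed normalized count per kb, given without a test. Lama5 made up 96.3%, 95.5% and 94.6% of the alpha chain level in CTRL and 89.0%, 89.0% and 86.7% in FGF13cko. Lama4 made up 1.71% to 2.21% in CTRL and 5.02% to 6.03% in FGF13cko, and Lama1 went from 1.49% to 1.66% in CTRL to 3.75% to 3.84% in FGF13cko. For both genes the shares of CTRL 3 lay with those of CTRL 1 and 2, although its counts were the lowest. Lamb1 made up 8.51%, 9.37% and 5.63% of the beta chain level in CTRL and 19.1%, 21.1% and 18.0% in FGF13cko, while Lamb2 made up 88.9% to 92.0% and 78.6% to 81.4%. Summed over its chains, the alpha class was at 411 to 819.5 per kb in CTRL and 359.9 to 553 in FGF13cko, and the beta class at 402 to 582 and 507 to 628, so that both sums overlapped between the groups.

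**Figure D2:**
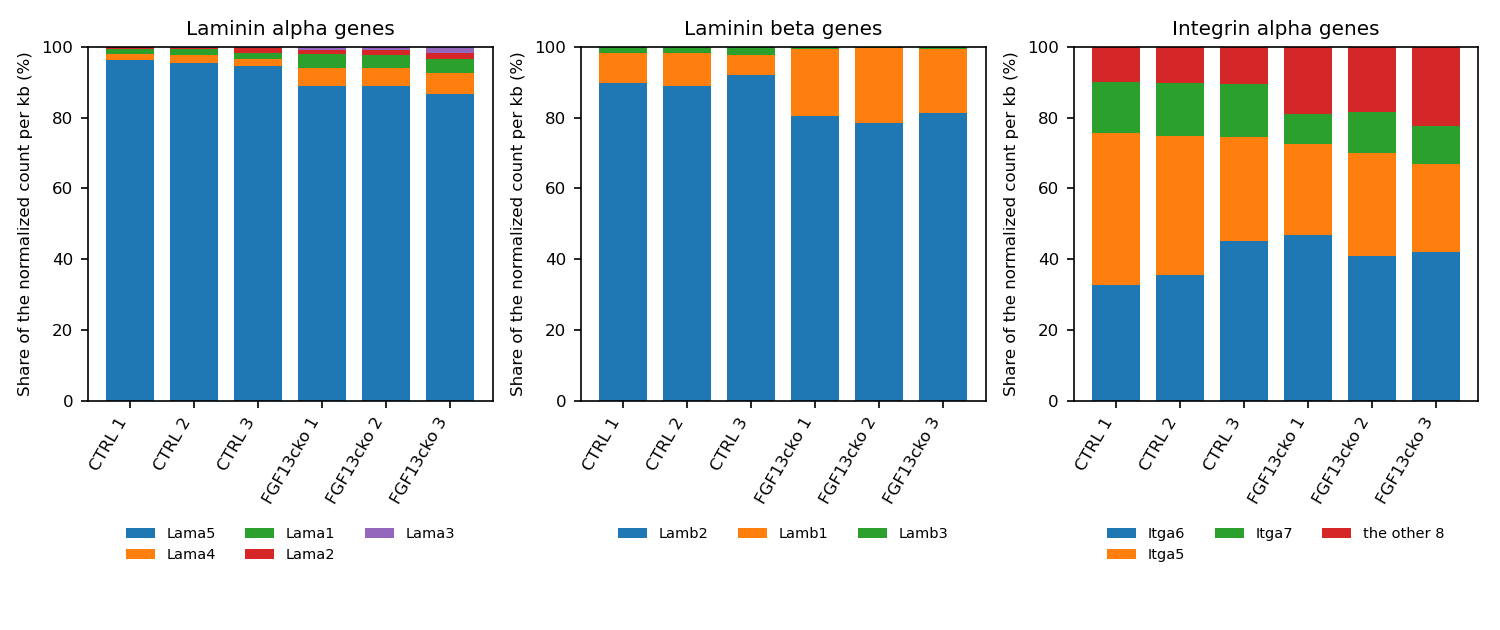
Share of the normalized count per kb held by each gene, in percent, within the laminin alpha, laminin beta and integrin alpha genes (without Itgav), 1 bar per library. The Lamb1 share is 5.63% to 9.37% in CTRL and 18.0% to 21.1% in FGF13cko, and Lama5 and Lamb2 stay the largest parts in all 6 libraries.

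Integrins are taken by the ligand they bind. Itgb1 encodes the beta subunit shared by most alpha subunits, and it was the most abundant member per length, at 4041 ± 125 normalized counts per kb in CTRL and 3774 ± 355 in FGF13cko. Its normalized counts were 16643, 16906 and 15920 in CTRL and 16974, 15104 and 14122 in FGF13cko. The ranges overlapped, and the 95% interval of the log2 change, -0.47 to 0.27, includes 0 (log2 change -0.10, limma adjusted p = 0.698).

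The laminin-binding group has 4 genes, of which 1 rose and 2 fell. Itga6, whose product binds laminin and marks neural stem cells, stood at 4221, 4248 and 4201 normalized counts in CTRL and at 5126, 4598 and 3513 in FGF13cko. CTRL was tight and FGF13cko spread to both sides of it (log2 change 0.05, 95% interval -0.34 to 0.43, limma adjusted p = 0.878). Itgb4, the beta subunit that pairs with Itga6 in the hemidesmosomes of epithelia, fell from 209.5, 109.7 and 152 to 35.4, 57.9 and 52.2. No library overlapped, and the fall was 3.15-fold (log2 change -1.65, SE 0.31, limma adjusted p = 0.0139). Of the exon bases of Itgb4, 7.66% overlap a gene on the other strand, and reads of the 2 strands are not told apart by the kit used. Itga7, the main laminin receptor of muscle, fell from 1683, 1613 and 1253 to 849.8, 1164 and 820.5. The gap between CTRL 3 and FGF13cko 2 was small beside the spread within groups, and the call was near the threshold (log2 change -0.69, SE 0.19, limma adjusted p = 0.0475). Itga3, which binds epithelial and other laminins, rose from 183, 180.1 and 130.5 to 237, 299 and 383 (log2 change 0.88, SE 0.24, limma adjusted p = 0.0431). These 3 genes lie at chr11:115974709-116008412 (Itgb4), chr10:128933818-128958282 (Itga7) and chr11:95044474-95076801 (Itga3).

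The RGD-binding group holds receptors that recognize the tripeptide arginine-glycine-aspartate in fibronectin and related ligands. Itga8, a receptor for nephronectin and other RGD ligands, rose from 57.0, 52.3 and 26.3 normalized counts in CTRL to 156, 157 and 167 in FGF13cko. The FGF13cko libraries were nearly equal and all at least 2-fold above CTRL, and the rise of 3.68-fold had the smallest adjusted p of all members (log2 change 1.88, SE 0.31, limma adjusted p = 0.00957). The gene lies at chr2:12106632-12301922, and 5.05% of its exon bases overlap a gene on the other strand. Itga5, the alpha subunit of the main fibronectin receptor, was at 3035, 2571 and 1516 in CTRL and 1531, 1801 and 1140 in FGF13cko. CTRL 3 lay inside the FGF13cko range, and the log2 change of -0.64 (95% interval -1.28 to 0.01) missed the threshold (limma adjusted p = 0.161). It passed with the replicate block (limma adjusted p = 0.0105), and without CTRL 3 the log2 change was -0.93 (limma adjusted p = 0.0105). Itgb5, a beta subunit of vitronectin receptors, was at 3532, 3070 and 1989 in CTRL and at 3935, 4111 and 2831 in FGF13cko (log2 change 0.36, 95% interval -0.20 to 0.93, limma adjusted p = 0.347). Itgb8, whose product activates latent TGF-beta in the developing brain, was at 4180, 3790 and 5313 in CTRL and at 3913, 3737 and 3264 in FGF13cko (log2 change -0.27, 95% interval -0.66 to 0.12, limma adjusted p = 0.305). Both overlapped between the groups. Itgb3, best known from platelets, was at 63.7 ± 8.76 in CTRL and 106 ± 18.0 in FGF13cko (SD, n = 3 each) and passed only with the block (limma adjusted p = 0.0764 without it and 0.0404 with it). Itgb6, an epithelial subunit, was too low to test, with 0, 1.01 and 0 normalized counts in CTRL and 0, 0 and 2.90 in FGF13cko, all at or under the 3 reads that a count of 0 allows.

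None of the 4 collagen-binding genes passed in either direction by limma, edgeR or DESeq2, while 3 were higher and none lower at an unadjusted limma p under 0.05. At that threshold 16.7% of all genes tested were higher and 15.1% lower. Itga1, Itga2 and Itga11 were without overlap, with log2 changes of 0.48, 0.65 and 1.17 (limma adjusted p = 0.0745, 0.124 and 0.102). Itga1 passed with the replicate block (limma adjusted p = 0.0422). Itga10 had a log2 change of -0.44 (limma adjusted p = 0.296), and 33.5% of its exon bases overlap another annotated gene.

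Itgb2, the beta subunit of the leukocyte integrins, rose from 10.2, 13.1 and 14.2 normalized counts to 38.4, 57.9 and 37.7 (log2 change 1.74, SE 0.33, limma adjusted p = 0.0141), on 37 reads in CTRL and 138 in FGF13cko. The alpha subunits that pair with it, Itgal, Itgam, Itgax and Itgad, were all below a mean of 10, at 9.69, 3.31, 4.86 and 1.65. Itgax was at 2.03, 0 and 0 in CTRL and at 4.92, 14.5 and 7.73 in FGF13cko, without overlap, on 2 and 28 reads. The values of Itgal, Itgam and Itgad overlapped between the groups. Itga4, an alpha subunit that binds VCAM-1 and fibronectin, was at 286, 363 and 124 in CTRL and at 839, 758 and 376 in FGF13cko. The groups parted by a narrow gap between CTRL 2 and FGF13cko 3, both libraries numbered 3 were the lowest of their group, and the log2 change of 1.40 (SE 0.44) did not pass (limma adjusted p = 0.0702). It passed with the replicate block (limma adjusted p = 0.000648), and not by edgeR (adjusted p = 0.0670). DESeq2 called it here (adjusted p = 0.00812) and in the authors' deposited table (adjusted p = 0.00827). Itga9, a receptor for tenascin and VCAM-1, was at 177 to 229 in CTRL and 273 to 362 in FGF13cko (limma adjusted p = 0.0668, and 0.0229 with the block). DESeq2 called Itga9 as well, here (adjusted p = 0.0444) and in the authors' deposited table (adjusted p = 0.0450). Itgb7, a lymphocyte subunit, overlapped between the groups, at 22.1 to 51.6 and 11.6 to 26.1 (log2 change -0.75, limma adjusted p = 0.281).

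**Figure D3:**
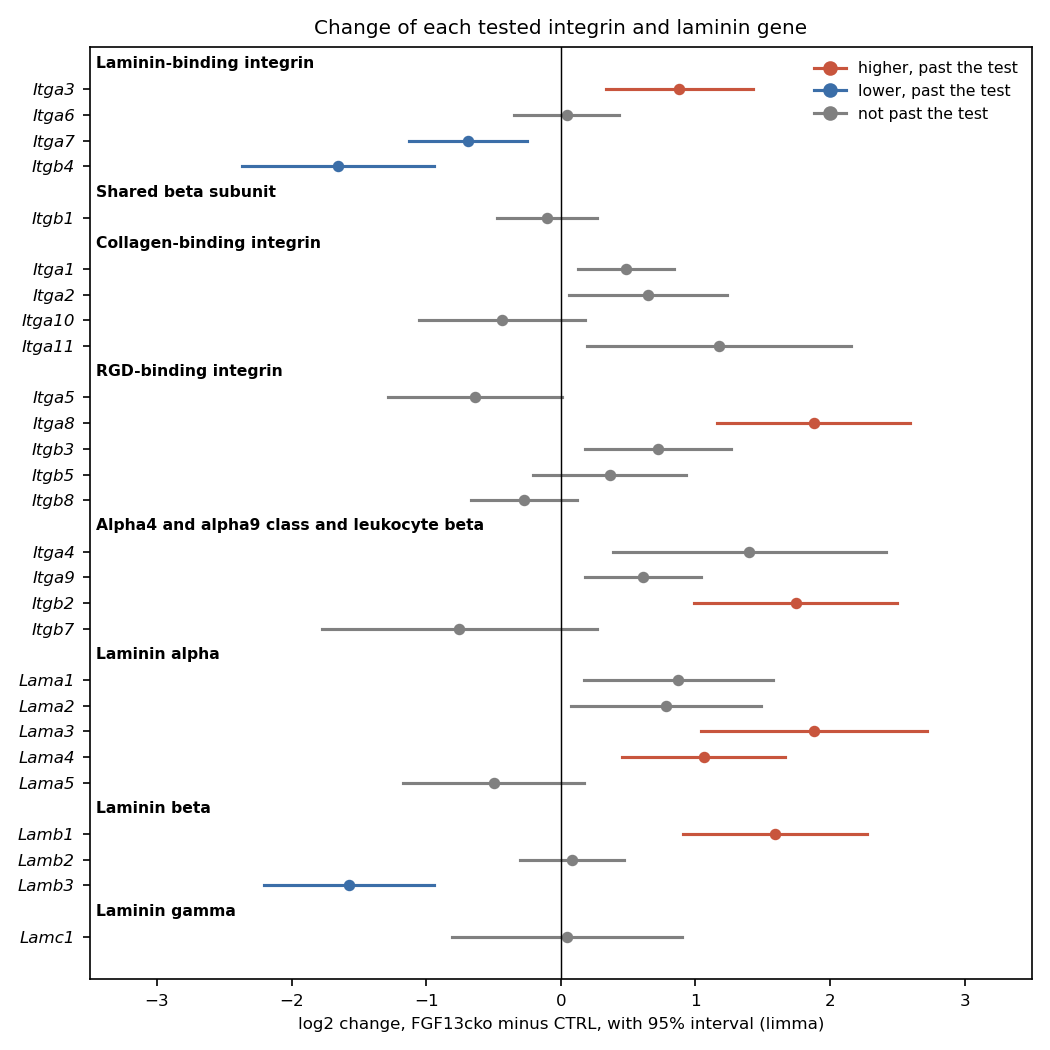
Log2 change, FGF13cko minus CTRL, with its 95% interval from limma for the 27 tested genes, grouped by ligand or chain. Red intervals rose and blue fell, and grey ones did not pass after adjustment over all genes. The intervals of Itga6, Itgb1 and Lamb2 are among the narrowest and include 0.

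Among the 11 alpha genes described, Itga5, Itga6 and Itga7 made up most of the summed normalized count per kb. This sum leaves out Itgav, which was at 421 ± 116 per kb in CTRL and 528 ± 90.5 in FGF13cko (SD, n = 3 each). Of the sum without Itgav, Itga5 held 42.9%, 39.3% and 29.7% in CTRL and 25.6%, 29.2% and 24.9% in FGF13cko. Itga6 held 32.6%, 35.5% and 45.0% in CTRL and 46.9%, 40.8% and 41.9% in FGF13cko, and Itga7 held at least 14.5% in each CTRL library and at most 11.5% in each FGF13cko library. CTRL 3 had the Itga5 and Itga6 shares nearest to those of FGF13cko, whereas for Itga7 the 3 CTRL libraries lay close together. With Itgav in the sum, Itga5 held 31.8%, 29.0% and 23.2% in CTRL and 17.5%, 19.8% and 17.1% in FGF13cko, and Itgav held 21.8% to 26.3% and 31.4% to 32.3%. Among the beta subunits Itgb1 held 70.5% to 78.1% in all 6 libraries, and Itgb5 held 11.2% to 18.1% in CTRL and 17.3% to 22.0% in FGF13cko.

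Genes that work with these receptors and ligands were described from 4 lists, whose counts stand beside the 7.55% of all tested genes that rose and the 7.08% that fell. Among basement membrane partners and other integrin ligands 6 of 29 tested rose and 3 fell by limma (median log2 change 0.20). By edgeR 6 rose and 6 fell (7.04% and 7.83% of all genes), and by DESeq2 also 6 and 6 (8.95% and 8.09%). With the replicate block 8 rose and 8 fell (16.2% and 13.9%). Agrn, Tnr and Egfl7 fell by edgeR and DESeq2 and did not pass by limma. Reln, a secreted guidance protein that also binds integrins, rose from 731, 924 and 1137 normalized counts to 3821, 3627 and 5550 (log2 change 2.21, SE 0.22, limma adjusted p = 0.00214). Icam1, a ligand of Itgb2 integrins, rose from 75.3 ± 26.0 to 509 ± 149 (SD, n = 3 each), and the RGD ligand Spp1 rose from 179.7 ± 69.9 to 598 ± 138. Vtn, Ntn4 and L1cam were the other members that rose. Fn1, or fibronectin, the ligand of the Itga5 receptor, fell from 6686, 6141 and 4068 to 1942, 2813 and 1463 (log2 change -1.46, SE 0.28, limma adjusted p = 0.0144). The RGD proteins Mfge8 and Fbln5 also fell, with log2 changes of -1.05 (SE 0.16) and -1.86 (SE 0.25).

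Itgav, the alpha subunit that pairs with the products of Itgb3, Itgb5, Itgb6 and Itgb8, falls outside the naming rule. It counted 5397, 5088 and 3095 normalized counts in CTRL and 6037, 6406 and 4567 in FGF13cko, which overlapped (log2 change 0.35, 95% interval -0.21 to 0.91, limma adjusted p = 0.358). Of the 4 tested integrin subunits outside the rule none passed by limma or edgeR, while DESeq2 called 1 higher and 1 lower, as did an unadjusted limma p under 0.05. A further list held laminin receptors outside the integrins and enzymes that glycosylate dystroglycan. It also held the netrin receptor genes Unc5b, Dcc and Neo1, and Utrn and Dmd, whose products link dystroglycan to the cytoskeleton. Of its 23 tested genes, 1 rose and none fell by limma (4 and 1 at an unadjusted p under 0.05, and 2 and 0 by edgeR and by DESeq2). That 1 was Adgrg6, an adhesion receptor that binds laminin in Schwann cells, from 306, 374 and 249.8 to 944, 1062 and 882 (log2 change 1.65, SE 0.18, limma adjusted p = 0.00283). Dag1, or dystroglycan, the main laminin receptor besides integrins, was at 8676 ± 2167 in CTRL and 8982 ± 1058 in FGF13cko (log2 change 0.08, limma adjusted p = 0.841). Of 43 tested integrin adaptors and signalling genes 1 rose and 5 fell (median log2 change 0.01). The kinase gene Ptk2b rose (log2 change 1.75, SE 0.31, limma adjusted p = 0.0125). The tetraspanin Tspan2, the adaptor Lims2 and the integrin-binding glycoprotein Bsg fell, with log2 changes of -1.94, -3.13 and -1.11, as did Tns2 and Dab2. CTRL 3 stood far above the other CTRL libraries for Lims2, at 182, 146 and 706 normalized counts in CTRL 1, 2 and 3. In FGF13cko Lims2 was at 23.6, 23.2 and 46.4, without overlap (95% interval of the log2 change -4.47 to -1.79). Lims2 shares 6.14% of its exon bases with the oligodendrocyte gene Gpr17 on the other strand, and the kit does not tell the strands apart. Gpr17 itself fell, from 1627, 1249 and 4305 normalized counts in CTRL to 295, 329 and 543 in FGF13cko (limma adjusted p = 0.0129). Whether reads of Gpr17 take part in the fall of Lims2 was not tested.

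Some markers of vessel, connective tissue and immune cells rose in FGF13cko, and most did not pass the test. All marker counts here stand beside the 7.55% of all tested genes that rose and the 7.08% that fell by limma. In the endothelial list 2 of 8 tested markers rose and none fell, and their sum was 88.0 to 233 normalized counts in CTRL and 285 to 503 in FGF13cko. In the mural and fibroblast list 4 of 8 rose and none fell, with sums of 451 to 532 and 1178 to 2805. Rgs5 carried much of that sum, and without it the sums were 221 to 354 and 519 to 537. The fibroblast gene Col1a1 went the other way, at 91.5, 91.6 and 34.4 in CTRL and 34.4, 38.6 and 20.3 in FGF13cko (limma adjusted p = 0.129). In the microglia and macrophage list 3 of 9 rose and none fell, with sums of 213 to 229 and 407 to 677. No marker of these 3 lists was at 0 in all libraries, and Ly6c1 and Lum were at 0 in every CTRL library. Their part in the rise of Itgb2, Lama4, Itga8 or the other members was not tested. The lymphocyte markers Cd3d, Ms4a1 and Nkg7 were at 0 in all 6 libraries, and the 1 marker of that list that was tested did not pass. In the young neuron list 7 of 10 rose, with sums of 21027 to 29350 in CTRL and 38543 to 51956 in FGF13cko, and their part too was not tested. Of the other neural lists, 1 of 7 astrocyte markers rose, 2 of 9 oligodendrocyte lineage markers fell, and 2 of 5 ependymal markers rose, with ependymal sums of 612 to 855 and 1355 to 1564.

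**Figure D4:**
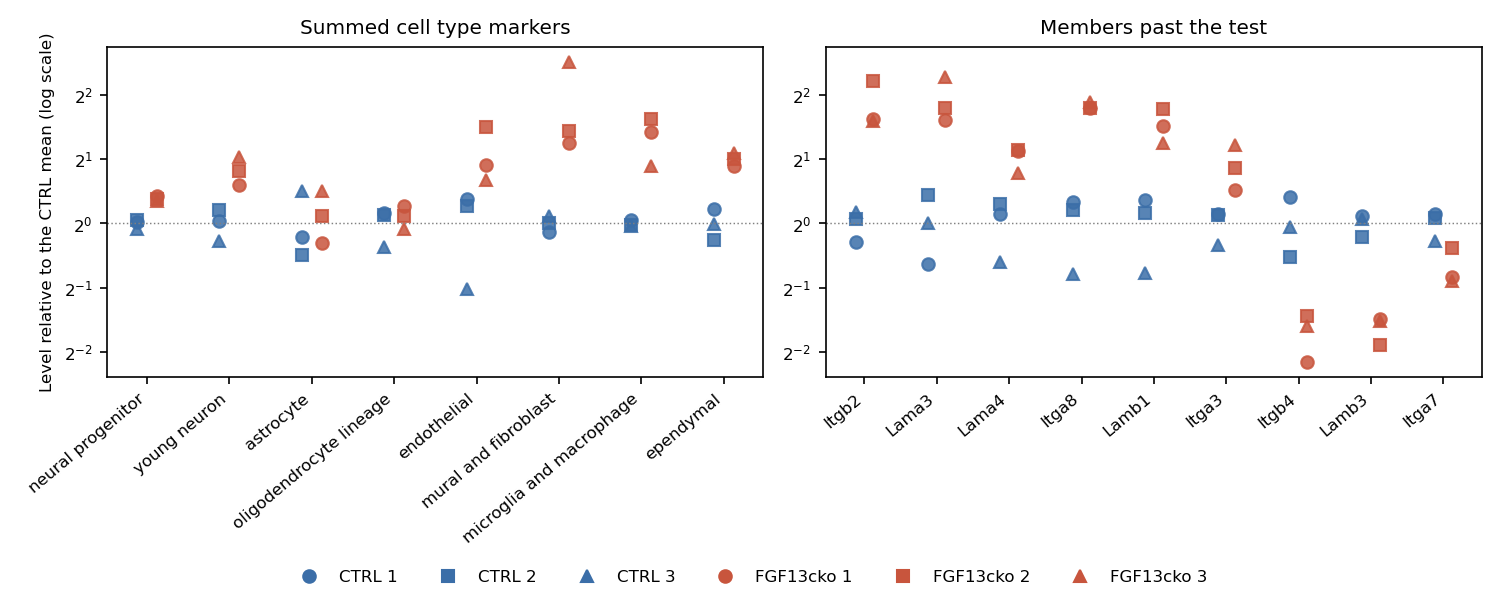
Level relative to the CTRL mean on a log scale, per library, for summed marker lists (left) and for the 9 members past the test (right). The neural progenitor, endothelial, mural, microglial, ependymal and young neuron sums are higher in all FGF13cko libraries than in any CTRL library, as are the 6 members that rose.

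How many members passed depended on the libraries used, and each count below is followed by the share of all genes that passed in the same direction. All 9 kept their direction in each of the 16 alternative fits that tested them. Without FGF13cko 2 none of the 9 passed by limma, where 1.14% of all genes passed as higher and 1.64% as lower. At an unadjusted p under 0.05, 9 members were then higher and 4 lower (11.2% and 11.0%). Without CTRL 1 only Itga8 and Lamb1 passed (2.31% and 2.02%). Without FGF13cko 3 these passed together with Itgb2, Itgb4 and Lamb3 (2.56% and 2.93%). Without CTRL 2 the calls of Itga3 and Itga7 were lost (4.96% and 4.33%), and without FGF13cko 1 those of Itga7 and Lama4 (4.58% and 3.74%). Without CTRL 3, 9 members passed as higher and 5 as lower (13.4% and 12.9%), with Itga2, Itga11 and Lama2 (higher) and Itga5 and Lama5 (lower) added to the 9. Without both libraries numbered 3, 14 passed as higher and 5 as lower (18.9% and 18.4%). The 9 were among them, and those added as higher were Itga1, Itga2, Itga4, Itga9, Itga11, Itgb5, Lama1 and Lama2. Itga5 and Lama5 were added as lower.

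With the replicate number as a block 11 members were higher and 5 lower, the 9 included (16.2% and 13.9%). The count tests on recovered reads called all 9, edgeR with 6 higher and 3 lower (7.04% and 7.83%), and DESeq2 with 8 higher and 3 lower (8.95% and 8.09%). The authors' deposited table, which comes from DESeq2 on the same libraries, holds 8 members as higher and 3 as lower at an adjusted p under 0.05 (8.78% and 7.91%). It is thus not a separate check on the DESeq2 run here. Pseudocounts of 0.5 (7.51% and 7.07%) and 5 (7.68% and 7.20%) left the 9 calls in place, TMM scaling (7.33% and 7.01%) lost Itga7, and limma without the trend (6.10% and 6.18%) lost Itga3, Itga7 and Lama4. With no filter on low values (3.22% and 2.82%) Itga3 and Itga7 were lost, and a minimum mean of 50 (7.74% and 7.75%) removed 3 of the 9 from the test.

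**Figure D5:**
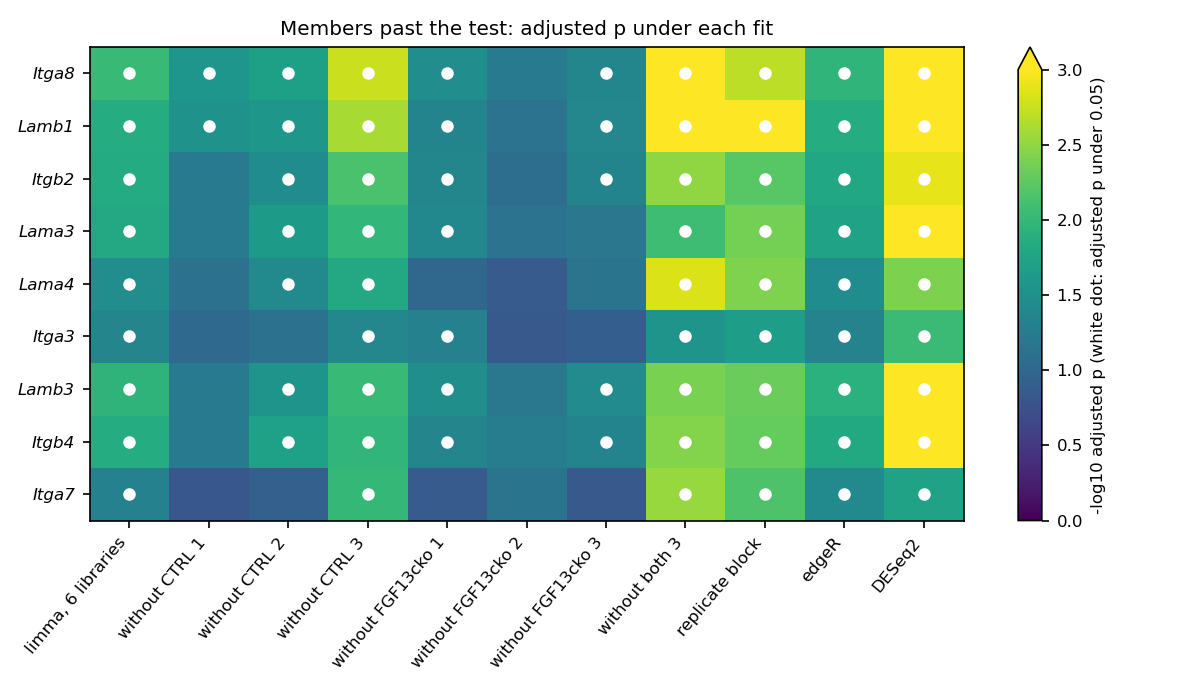
Adjusted p on a −log10 scale for the 9 members past the test (rows, the 6 that rose above the 3 that fell) under each fit (columns), with a white dot where it is under 0.05. The column without FGF13cko 2 holds no dot, and those of edgeR, DESeq2 and the replicate block hold 9.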

How the data were processed

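Reads were aligned with STAR to mm10 and analysed with DESeq2, per the submitters' processing notes, with no versions. For the annotation and the counter, the sources used here give no name. The authors deposited 1 normalized signal per gene and library (counts divided by a size factor), with a log2 fold change and its standard error, a Wald score, and p-values. Dividing by the smallest step gave whole reads for 100% of values (within 0.01 of a read). The library kit does not mark strand, per the labels' protocols naming it.

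The main test was limma 3.58.1 (R 4.3.3) with its variance trend, 2-sided and with a single genotype coefficient, fitted to log2 of the normalized count plus 1 over 16852 genes with a mean of at least 10. P-values were adjusted by Benjamini-Hochberg over all of them and called under 0.05. Fold changes refer to log2 of the count plus 1, so those of low genes are understated. edgeR 4.0.16 and DESeq2 1.42.0 were run on recovered reads as alternatives. Both, limma and limma with the replicate block were also run on simulated counts, with independent libraries and the same noise setting for all genes. That simulation does not carry the differences between libraries described below. Coordinates and exon lengths are from GENCODE release M21 (GRCm38, the assembly of mm10). Every member described is named, and 1 of the 30 genes that the rule finds is not reported here. Values are given per library for those past the test and the most abundant, and from each partner list up to 3 that rose and 3 that fell. The members and lists were chosen with earlier results of these data known.

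Same-numbered libraries correlated in their residuals at 0.36, 0.20 and 0.54 for replicates 1, 2 and 3, so results were also fitted with that number as a block. No label says what a number marks, and CTRL 2 correlated more with FGF13cko 1 (0.33) than with FGF13cko 2. Libraries of 1 group differed by more than sampling noise (chi-square per gene 7.51 to 143). Figures used Python 3.11.15 and matplotlib 3.10.9.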

Additional observations from a re-analysis of the deposited data

How the results depend on the processing

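The counts of 6 members higher and 3 lower moved most with the libraries used. They were 11 and 5 with the replicate block, and 14 and 5 with both libraries numbered 3 left out, which leaves 2 libraries in each group. Leaving out 1 library in turn gave 0 to 9 higher and 0 to 5 lower. With a minimum mean of 50, under which 22 members are tested, they were 4 and 2. Under the other pseudocounts, TMM scaling, edgeR, DESeq2, limma without the trend and no filter on low values, they were 4 to 8 and 2 to 3.

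Of the 27 tested members 24 kept their direction in every fit, and the other 3 had changes near 0. Itga6 turned to -0.071 without FGF13cko 1 (-0.071 to 0.20 over single libraries left out), and Lamb2 to -0.022 without CTRL 3 (-0.022 to 0.23). Lamc1 was at -0.0027 by DESeq2, -0.020 by edgeR and -0.073 without both libraries numbered 3, and between -0.36 and 0.33 with 1 library left out. The cause was not tested. Among partner lists, members of the ligand list ranged from 2 to 10 in each direction over all fits, and those of the adaptor list from 0 to 10 higher and 1 to 11 lower. With 3 libraries in each group, an exact permutation test of 1 gene cannot go below p = 0.1.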
